A study of Saccharomyces cerevisiae with 18 samples.

Results

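The step examined was the rise in α-pheromone from 1–5 nM to 10–20 nM in MATa cells of the budding yeast Saccharomyces cerevisiae. It comprised 9 of the 18 RNA-seq libraries of the series, 5 from cells given 10, 15 or 20 nM and 4 from cells given 1 or 5 nM, and the libraries were chosen by dose alone. All cells were of strain yAA95, which carries deletions of BAR1 (the protease that degrades α-pheromone), of both genes for α-pheromone itself and of ARG4, and which has an sfGFP reporter driven by the FUS1 promoter inserted at URA3. The parent SEY6210a is described by the study's methods as lacking Kss1 function, so that signalling runs through the kinase Fus3. Every culture received pheromone for 60 min. Experiments 1 and 2 were each a single culture divided over flasks, with a mock flask (0 nM) of its own. Experiment 1 gave 1, 5, 10, 15 and 20 nM libraries for the step and experiment 2 gave 1, 5, 10 and 20 nM libraries, so 15 nM was measured without a replicate. The remaining libraries, at 0, 0.05, 0.25, 50, 100 and 500 nM, enter below as the doses on either side. Because the flasks of an experiment share a culture and because each dose range pools different doses, the p-values measure the spread among these libraries.

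Pheromone released by MATα cells binds the receptor Ste2 on MATa cells, and a G protein and a MAP kinase cascade ending in Fus3 then relieve the transcription factor Ste12 from its repressors. Ste12 activates genes for agglutination, cell fusion and nuclear fusion, while Far1 blocks the G1 cyclin-kinase complexes, so that cells stop before Start and the transcription programmes of S phase and mitosis are not entered. In an asynchronous culture these genes are transcribed in periodic waves, the G1/S wave driven by SBF and MBF, the S phase histone wave and the mitotic wave driven by Fkh2, Mcm1 and Ndd1. Transcript levels here are averages over all cells of a flask, so fewer cells in a phase and less RNA per cell cannot be told apart.

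The 9 libraries held 6210005 to 16660007 mapped reads, with a median of 11280047, and the shallowest was the 1 nM library of experiment 1. At these depths 3 reads on a transcript of 1000 bases corresponded to 0.180 to 0.483 RPKM, the unit of the deposited values, which are reads scaled for gene length and for the mapped reads of the library. The 6 markers of MATa cells were listed above 0 in all of the libraries and summed to 2777–3782 RPKM at 1–5 nM and 4980–7008 RPKM at 10–20 nM. The 2 markers of MATα cells tested summed to 12.9–16.9 RPKM at 1–5 nM and 19.8–25.4 RPKM at 10–20 nM. Of these, the receptor STE3 lay between 1.17 and 2.81 RPKM in the 9 libraries, whereas the agglutinin SAG1 was higher by less than 2-fold at 10–20 nM, at 10.4–14.9 and then 17.9–24.0 RPKM (0.66 ± 0.08 SE on the log2 scale, adjusted p = 0.00712, limma). The 5 meiotic diploid markers together lay between 10.7 and 14.0 RPKM. The deleted BAR1 and ARG4 did not exceed 0.288 RPKM in any library.

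Over the step, 53 of 5979 genes tested rose (0.886%) and 75 fell (1.25%), by the criteria of an adjusted p below 0.05 (limma, Benjamini-Hochberg adjustment over all genes) and 2-fold or more on the log2(RPKM + 1) scale. The rises included genes of cell fusion, agglutination, nuclear fusion and other pheromone-regulated membrane (PRM) proteins, together with IME4, open reading frames of the retrotransposon Ty3 and several tRNA genes. The falls included core histone genes, G1/S regulators and cyclins, cohesin genes and mitotic genes. Of the 53 risen genes 33 belonged to one of the gene lists described below, as did 41 of the 75 fallen genes. The median change of the risen genes was 1.87 and that of the fallen genes −1.36, on the log2 scale, against a median of −0.04 over all genes tested. At an adjusted p below 0.05 and any size of change, 243 genes were higher and 793 were lower, so that falls of less than 2-fold outnumbered rises of less than 2-fold. All 53 risen and all 75 fallen genes changed in the same direction in experiments 1 and 2. They were chosen on these libraries together, so a shared direction, here or without single libraries, is not independent support. In 45 of the 53 and 61 of the 75, every library at 10–20 nM lay outside the range of the libraries at 1–5 nM, compared with 203 genes above and 565 below among all 5979. The count of fallen genes depended on single libraries. It was 30 without the 1 nM library of experiment 1, 27 without that of experiment 2, 48 without the 15 nM library, 49 without the 20 nM library of experiment 1, 30 without that of experiment 2 and 117 without the 10 nM library of experiment 1, while the count of risen genes stayed between 45 and 60. Over the 9 fits that each left out 1 library, 43 of the 53 risen and 21 of the 75 fallen genes kept their call every time, and none of the 128 changed direction in any of them.

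**Figure D1:**
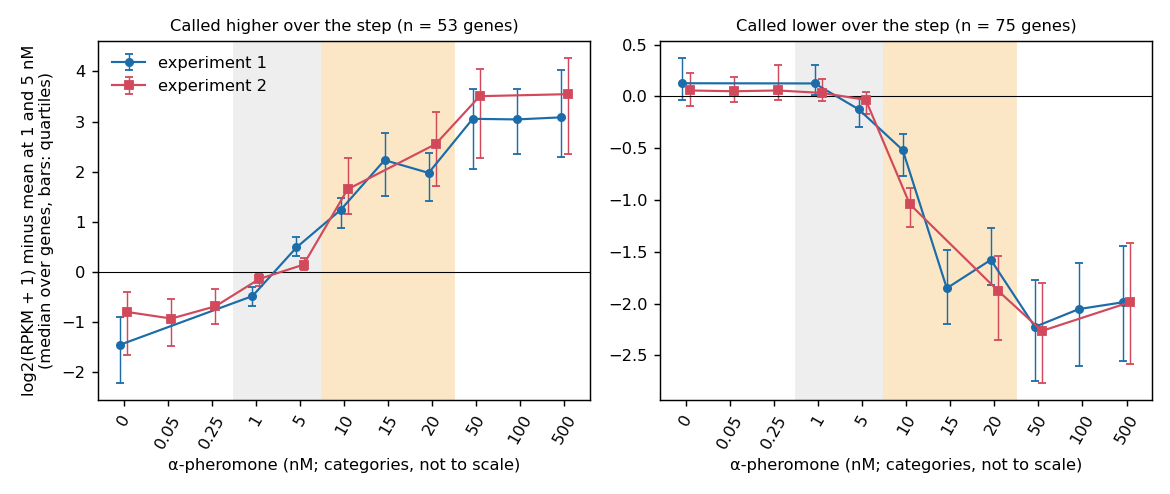
Median change of the 53 genes called higher (left) and the 75 called lower (right) over the step, as log2(RPKM + 1) minus the mean of the 1 and 5 nM libraries of the same experiment, against pheromone dose in nM (categories, not to scale; bars are quartiles over genes; grey and orange bands mark 1–5 and 10–20 nM). The median of the risen genes was already above mock at 1–5 nM and went on rising at 50 nM, whereas the median of the fallen genes stayed near mock up to 5 nM. Single fallen genes such as CLB1 and HOF1 were lower than mock already at 5 nM.

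The calls at lower doses were set beside those of the step. From 0–0.25 to 1–5 nM, 22 of 5995 genes tested rose (0.367%) and 2 fell (0.0334%), and all 22 of those rises were among the 53 genes that rose again over the step. The other 31 were called for the first time between 1–5 and 10–20 nM. A first call is not a first change, since 51 of the 53 were already higher at 1–5 nM than at 0–0.25 nM. PRM8 (1.13 on the log2 scale, adjusted p = 0.0548, limma) and PRM4 (1.25, adjusted p = 0.0886) rose there by more than 2-fold without passing. None of the 75 fallen genes was called lower at 1–5 nM, although 54 of them had a lower value there than at 0–0.25 nM. The shares of such directions over all genes were not counted. These comparisons share the libraries at 1 and 5 nM with the step. From 10–20 to 50–100 nM, where 1.10% of the genes rose and 1.00% fell, 30 of the 53 risen genes were called higher again and 22 of the 75 fallen genes were called lower again, and this comparison shares the 10–20 nM libraries with the step. SPG4, a gene of stationary phase survival, was the exception that rose over the step and was called lower after it. It lay at 1.38–2.78 RPKM at 1–5 nM and 2.34–10.3 RPKM at 10–20 nM, ranges that overlapped, and at 2.44 and 2.13 RPKM in the 50 nM libraries. Its call over the step was kept in 2 of the 9 fits that left out a library, those without the 10 or the 15 nM library of experiment 1, with an adjusted p of up to 0.0805 in the others.

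The difference between the change over the step and the change after it was itself tested in a fit of all 18 libraries, in which 0.784% of genes had the larger value over the step and 0.684% the smaller. Of the 53 risen genes, 4 rose by more over the step than after it: MFA1 (difference 1.64 on the log2 scale, adjusted p = 0.00741), AGA2 (1.64, adjusted p = 0.0153), AGA1 (1.55, adjusted p = 0.0438) and FUS3 (1.15, adjusted p = 0.0462). Of the 75 fallen genes, SFG1 (−1.51, adjusted p = 0.0155), a regulator of growth form, and HTZ1 (−1.22, adjusted p = 0.0443), the histone variant H2A.Z, fell by more over the step. MFA1 passed this test without each library of the step in turn (adjusted p of at most 0.0338). AGA2 and SFG1 did not pass without the 20 nM library of experiment 1 (adjusted p = 0.0620 and 0.0632). AGA1, FUS3 and HTZ1 did not pass without the 1 or the 5 nM library of experiment 2, the 1, 15 or 20 nM library of experiment 1 or the 20 nM library of experiment 2, nor AGA1 and FUS3 without the 10 nM library of experiment 2, with an adjusted p of up to 0.118. For the other called genes the test did not separate the changes, which does not show that they were equal.

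**Figure D2:**
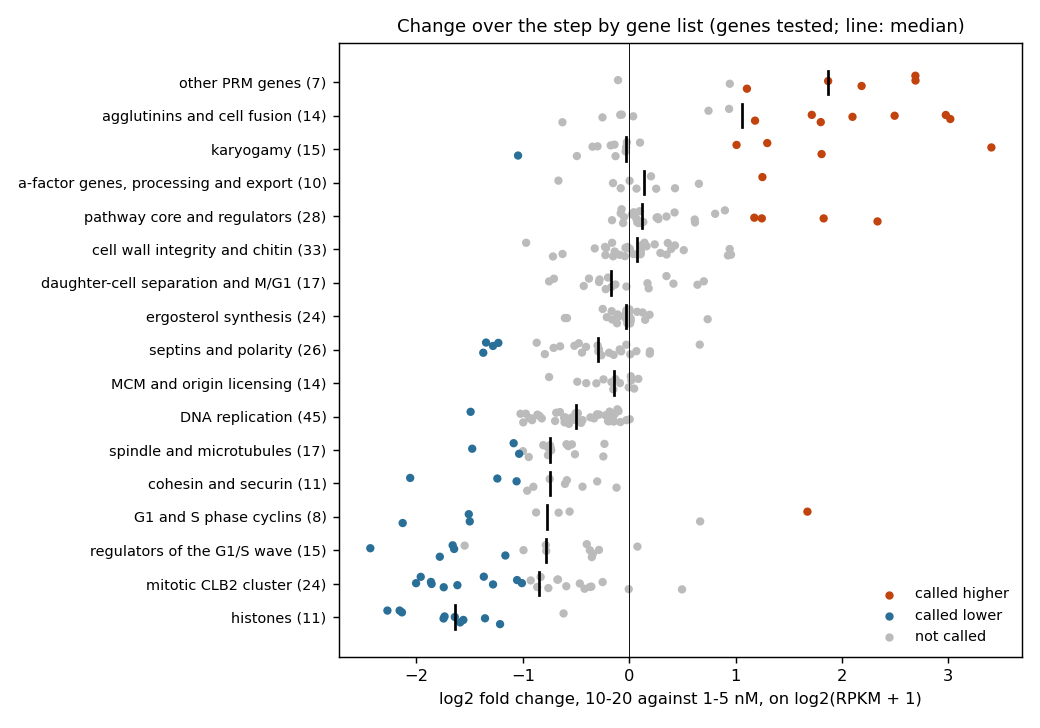
Log2 fold change over the step on log2(RPKM + 1) (x axis) for each tested gene of 17 lists (y axis, number tested in parentheses); orange points were called higher, blue lower, grey not called, and the black line is the list median. The medians of the PRM list (1.87) and the fusion list (1.06) lie to the right of 0, with single members to the left, and the histone list has the lowest median (−1.64).

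Of 14 genes of agglutination and cell fusion tested, 7 rose and none fell by 2-fold or more, with a list median of 1.06 on the log2 scale. FIG1 (YBR040W, chrII:316968-317864), which encodes a membrane protein needed for calcium influx and efficient fusion, was at 36.5 and 190 RPKM at 1 and 5 nM in experiment 1 and at 42.2 and 81.5 RPKM in experiment 2. At 10, 15 and 20 nM it reached 358, 849 and 819 RPKM in experiment 1, and at 10 and 20 nM 388 and 734 RPKM in experiment 2. The dose groups did not overlap, and the change was 3.02 ± 0.48 (SE; 5 and 4 libraries, adjusted p = 0.0081). FIG2 (YCR089W), a cell wall adhesin of the mating projection, rose from 9.77–51.0 to 69.5–330 RPKM, by 2.98 ± 0.39 (adjusted p = 0.00712). FUS2, which acts with Rvs161 in fusion, rose from 27.8–115 to 172–364 RPKM (2.49 ± 0.39, adjusted p = 0.00803), and PRM1, which acts at plasma membrane merger, from 60.0–191 to 232–577 RPKM (2.10 ± 0.34, adjusted p = 0.0081). FUS1 (YCL027W), the fusion gene whose promoter drives the reporter of this strain, was at 65.1 and 131 RPKM at 1 and 5 nM in experiment 1 and at 43.1 and 46.0 RPKM in experiment 2. It then stood at 198, 322 and 270 RPKM at 10, 15 and 20 nM in experiment 1 and at 139 and 238 RPKM at 10 and 20 nM in experiment 2, a rise of 1.72 ± 0.25 (adjusted p = 0.00712). The lowest 10–20 nM library of FUS1 was thus above the 5 nM library of experiment 1, which was itself the highest of the lower doses. RVS161 (0.94 ± 0.16, adjusted p = 0.00913) and HYM1 (0.75 ± 0.14, adjusted p = 0.0116) were higher by less than 2-fold, and SPA2, a scaffold of polarised growth, was lower by less than 2-fold (−0.63 ± 0.12, adjusted p = 0.0132).

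Both subunits of a-agglutinin rose. AGA2, the binding subunit, stood at 546 and 935 RPKM at 1 and 5 nM in experiment 1 and at 583 and 768 RPKM in experiment 2. It reached 1198, 1668 and 1697 RPKM at 10, 15 and 20 nM in experiment 1 and 1535 and 1814 RPKM at 10 and 20 nM in experiment 2 (change 1.18 ± 0.18, adjusted p = 0.00712). AGA1, its cell wall anchor, rose from 31.4–115 to 128–354 RPKM (1.80 ± 0.21, adjusted p = 0.00712). MFA1, a gene for a-factor, rose from 360–571 to 885–1277 RPKM (1.25 ± 0.13, adjusted p = 0.00712). At 50 nM the levels of AGA2 were 1228 and 1372 RPKM and those of MFA1 883 and 881 RPKM, below the 20 nM library of the same experiment in each case. Of the 10 genes of a-factor production, processing and export, MFA1 was the called one. MFA2 (0.65 ± 0.11, adjusted p = 0.00824), AXL1, a protease of a-factor maturation (0.43 ± 0.07, adjusted p = 0.00821), and the exporter STE6 (0.25 ± 0.06, adjusted p = 0.0281) were higher by less than 2-fold, and RCE1 was lower by less than 2-fold (−0.67 ± 0.14, adjusted p = 0.0175).

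Of the 7 other PRM genes tested, 5 rose and none fell, with a median of 1.87. PRM2 rose from 9.61–44.6 to 63.8–172 RPKM (2.69 ± 0.43, adjusted p = 0.0081) and PRM6 from 15.2–88.1 to 138–277 RPKM (2.69 ± 0.45, adjusted p = 0.00838). PRM4 rose by 2.18 ± 0.34 (adjusted p = 0.00796), PRM8 by 1.87 ± 0.30 (adjusted p = 0.0081) and PRM10 by 1.11 ± 0.18 (adjusted p = 0.00824). PRM10 overlaps its neighbour YJL107C on the same strand, which rose by 1.04 ± 0.20. The overlap covers only bases 218853 to 218856 of chromosome X, and reads of these bases cannot be assigned to either. Without the 20 nM library of experiment 2, PRM10 was below 2-fold, at an adjusted p of at most 0.0358. PRM5 was higher by less than 2-fold (0.95 ± 0.16, adjusted p = 0.00913), and PRM7 was at 3.79 and 3.69 RPKM on average (−0.11 ± 0.21, adjusted p = 0.779).

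The promoters of risen genes often held the letters TGAAACA, the pheromone response element bound by Ste12. In windows from 250 bases before to 50 bases after the start codon, on either strand, 12 of 39 risen protein-coding genes (30.8%) held it, compared with 7.31% of all 5543 promoters and 3 of 72 fallen genes. At least 2 copies were found in 4 of the 39, compared with 0.343% of all. The stretches from 250 to 101 bases before the start codon are given for the 3 genes with the largest rises that hold the element in that stretch, read from R64 and written on the strand of the gene, with the element in capitals in either orientation.
PRM3 (chrXVI:183157-183306, minus strand): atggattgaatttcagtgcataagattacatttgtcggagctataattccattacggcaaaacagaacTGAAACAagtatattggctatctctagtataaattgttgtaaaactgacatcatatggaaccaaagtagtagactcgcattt
PRM2 (chrIX:285100-285249, minus strand): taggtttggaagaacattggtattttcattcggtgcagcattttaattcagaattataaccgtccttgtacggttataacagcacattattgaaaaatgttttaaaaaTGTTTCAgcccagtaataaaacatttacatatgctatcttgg
PRM6 (chrXIII:181176-181325, minus strand): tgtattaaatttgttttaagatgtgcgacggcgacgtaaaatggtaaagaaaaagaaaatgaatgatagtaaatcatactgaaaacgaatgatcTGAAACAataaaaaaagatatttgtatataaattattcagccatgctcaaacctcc
The element starts within 182 bases of the start codon in PRM3, within 142 in PRM2 and within 156 in PRM6. A match of letters is a description of the sequence and no measurement of binding.

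Of 15 genes on a list for karyogamy, the fusion of the parental nuclei, 4 rose and 1 fell. The 1 that fell was VIK1, the mitotic partner of the motor Kar3. PRM3 (YPL192C), needed for fusion of the nuclear envelopes, had the second largest rise of all. It was at 18.1 and 69.6 RPKM at 1 and 5 nM in experiment 1 and at 14.5 and 29.5 RPKM in experiment 2. It rose to 146, 426 and 333 RPKM at 10, 15 and 20 nM in experiment 1 and to 217 and 553 RPKM at 10 and 20 nM in experiment 2 (3.40 ± 0.51, adjusted p = 0.00712). KAR5, a nuclear envelope protein, rose by 1.30 ± 0.22 (adjusted p = 0.00863). The motor KAR3 and its partners moved apart. Kar3 is a kinesin that pulls nuclei together when paired with Cik1 and acts on the mitotic spindle when paired with Vik1. KAR3 rose from 25.1–46.0 to 46.3–91.6 RPKM (1.01 ± 0.18, adjusted p = 0.00912), and CIK1 from 31.9–77.4 to 103–209 RPKM (1.81 ± 0.25, adjusted p = 0.00712). VIK1 was at 13.3 and 11.8 RPKM at 1 and 5 nM in experiment 1 and at 12.3 and 9.73 RPKM in experiment 2, and fell to 7.91, 5.38 and 5.30 RPKM at 10, 15 and 20 nM in experiment 1 and to 5.06 and 3.59 RPKM in experiment 2 (−1.04 ± 0.15, adjusted p = 0.00712). In each of the 3 genes the dose groups did not overlap. KAR3, close to the 2-fold threshold, dropped below it without the 1 or the 20 nM library of either experiment or the 15 nM library, and VIK1 without the 1 or the 20 nM library of experiment 2, with an adjusted p of at most 0.0379 for KAR3 and 0.0345 for VIK1 in these fits. The other 10 genes of the list were not called, and of these KAR1 (−0.49 ± 0.08, adjusted p = 0.00796) and JEM1 (−0.34 ± 0.08, adjusted p = 0.0234) were lower by less than 2-fold.

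**Figure D3:**
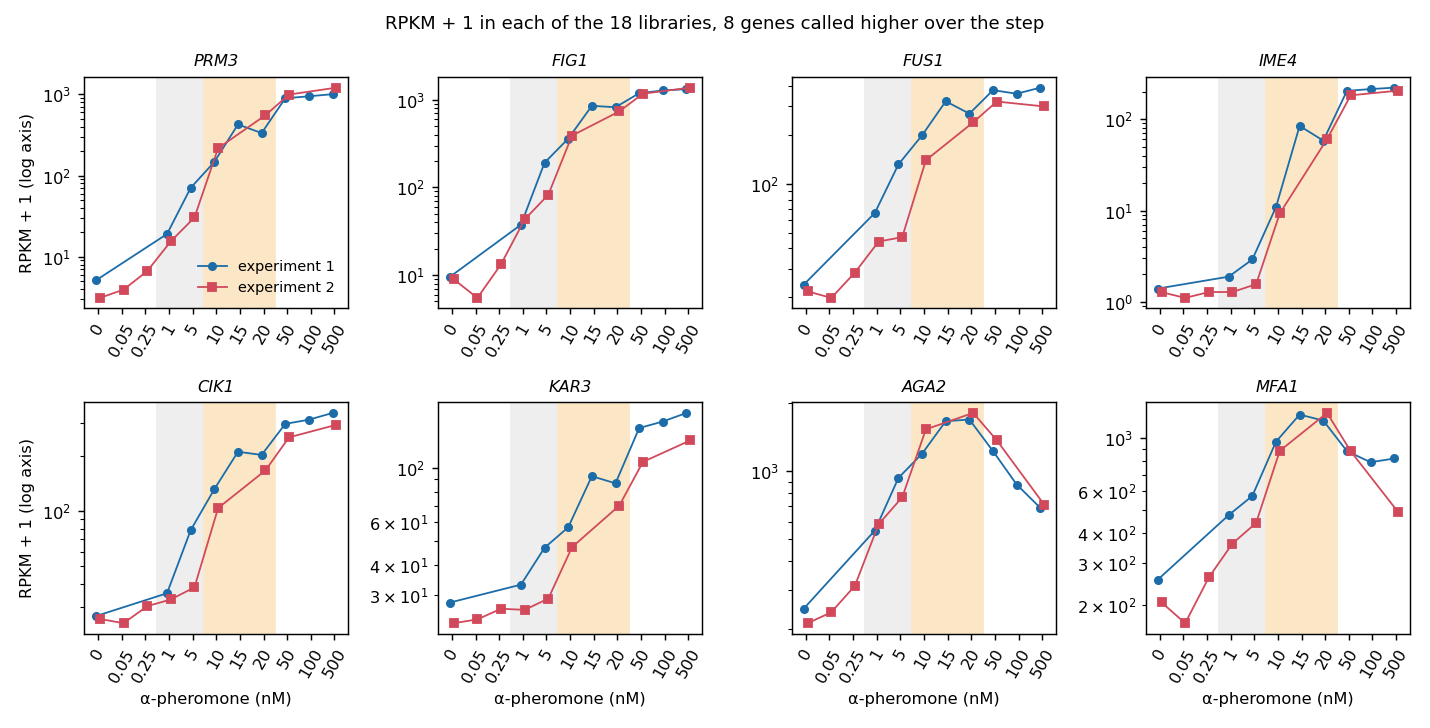
RPKM + 1 (log axis) in each of the 18 libraries against pheromone dose in nM (categories) for 8 risen genes; blue circles are experiment 1, red squares experiment 2, and grey and orange bands mark 1–5 and 10–20 nM. IME4 is near 1 RPKM up to 5 nM, AGA2 and MFA1 are highest at 15 or 20 nM, and the 5 nM library of experiment 1 lies above that of experiment 2.

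Within the signalling pathway, 4 of 28 genes rose, none fell and 11 were higher at any size of change (243 of 5979 over all genes), with a list median of 0.12. ASG7, a MATa-specific inhibitor of the G protein β subunit, rose from 67.7–193 to 326–739 RPKM (2.33 ± 0.35, adjusted p = 0.00712). AFR1, which promotes projection formation and adaptation, rose from 34.7–65.8 to 99.7–219 RPKM (1.83 ± 0.27, adjusted p = 0.00712). KAR4, a transcription factor that acts with Ste12 on karyogamy genes, rose from 151–407 to 375–704 RPKM (1.25 ± 0.24, adjusted p = 0.0120), and its groups overlapped because the 5 nM library of experiment 1 was above the 10 nM library of experiment 2. FUS3, the MAP kinase, rose from 81.6–165 to 176–306 RPKM (1.18 ± 0.17, adjusted p = 0.00712). Below 2-fold, FAR1 (0.90 ± 0.13, adjusted p = 0.00712), SST2, the regulator that speeds GTP hydrolysis by Gpa1 (0.81 ± 0.13, adjusted p = 0.00821), the phosphatase MSG5 (0.62 ± 0.14, adjusted p = 0.0199), the receptor STE2 (0.62 ± 0.09, adjusted p = 0.00712), STE18 (0.43 ± 0.07, adjusted p = 0.0081), TEC1 (0.35 ± 0.09, adjusted p = 0.0245) and GPA1 (0.27 ± 0.05, adjusted p = 0.00913) were higher. In the fits that left out 1 library, the adjusted p reached 0.0659 for MSG5 and 0.0654 for TEC1. For the others of these genes below 2-fold it was at most 0.0388. STE12 itself was at 72.3 and 77.3 RPKM on average (0.08 ± 0.06, adjusted p = 0.461), and its repressor DIG2 at 17.5 and 21.7 RPKM (0.27 ± 0.11, adjusted p = 0.121).

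The largest change of all was in IME4 (YGL192W, chrVII:142246-144048), which encodes an mRNA methyltransferase that acts in meiotic entry. It was at 0.894 and 1.92 RPKM at 1 and 5 nM in experiment 1 and at 0.287 and 0.566 RPKM in experiment 2, close to the mock values of 0.403 and 0.282 RPKM. It stood at 9.93, 83.4 and 57.2 RPKM at 10, 15 and 20 nM in experiment 1 and at 8.31 and 59.5 RPKM at 10 and 20 nM in experiment 2, a rise of 4.03 ± 0.67 (adjusted p = 0.00824). In RPKM, most of that rise lay between 10 nM and the next dose in both experiments, and at 50 nM the level was 203 and 181 RPKM. The pseudocount of 1 RPKM lowers the fold change of a gene this low at the start. The reference annotates an antisense RNA, RME2, across IME4 on the opposite strand; the libraries are directional. Among the 9 meiotic entry genes tested, IME4 was the one called. RIM4 was lower by less than 2-fold (−0.32 ± 0.09, adjusted p = 0.035). PGU1, a pectin-degrading enzyme of filamentous growth, was the called gene among 7 filamentation genes tested, at 3.41–7.35 RPKM before and 8.70–24.6 RPKM after the step (1.33 ± 0.27, adjusted p = 0.0150). Its call was lost without the 1 nM library of experiment 1 (adjusted p = 0.0527).

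Open reading frames of Ty3, a retrotransposon known to be transcribed in response to pheromone, rose with a difference in level between the cultures. YIL082W-A was at 29.6 and 42.5 RPKM at 1 and 5 nM in experiment 1 and at 8.33 and 7.03 RPKM in experiment 2, and reached 86.5, 233 and 165 RPKM at 10, 15 and 20 nM in experiment 1 and 28.7 and 74.0 RPKM in experiment 2 (2.23 ± 0.33, adjusted p = 0.00712). The dose groups overlapped over both experiments, but within each experiment every 10–20 nM library was above every 1–5 nM library. YGR109W-A (2.34 ± 0.36) and YGR109W-B (2.26 ± 0.36), which overlap each other at a separate Ty3 copy, behaved alike in this respect. Reads of the near-identical Ty3 copies could have been divided among them by the counting, so the values of single copies are uncertain.

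Of 75 tRNA genes tested among 297 listed, 9 were called higher and 2 lower, with a list median of 0.02. Of these 11 calls, 6 were kept in all 9 fits that left out a library, and 6 without the 1 nM library of either experiment, 7 without the 15 nM library and 7 without the 20 nM library of either experiment. The 2 falls, of tE(UUC)E2 and tI(UAU)L, were kept in 3 and 2 of the 9 fits. tQ(UUG)D2 was at 6.80 and 17.5 RPKM at 1 and 5 nM in experiment 1 and at 8.19 and 13.5 RPKM in experiment 2. It rose to 32.9, 136 and 104 RPKM in experiment 1 and to 76.0 and 179 RPKM in experiment 2 (3.002 ± 0.463, adjusted p = 0.00796). tH(GUG)E2 rose from 15.9–59.9 to 118–544 RPKM (2.89 ± 0.43, adjusted p = 0.00712), and tR(UCU)G3 from 15.9–68.7 to 114–499 RPKM (2.73 ± 0.47, adjusted p = 0.00891). tRNA genes are short and occur in near-identical copies, so their RPKM rest on few reads and an uncertain assignment.

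Of 11 histone genes tested, 10 fell, the remaining CSE4, the centromeric histone H3 variant, was lower by less than 2-fold (−0.62 ± 0.13, adjusted p = 0.0171), and in all 11 every 10–20 nM library was below every 1–5 nM library. Among all 5979 genes tested, 565 lay below in this way. HTB2 (YBL002W, chrII:236492-236887), one of the H2B genes, was at 496 and 432 RPKM at 1 and 5 nM in experiment 1 and at 418 and 475 RPKM in experiment 2, around its mock values of 533 and 430 RPKM. It stood at 323 RPKM at 10 nM and then at 53.2 and 96.1 RPKM at 15 and 20 nM in experiment 1, and at 158 and 30.8 RPKM at 10 and 20 nM in experiment 2 (−2.27 ± 0.57, adjusted p = 0.0272). Its divergent partner HTA2, for H2A, fell by 2.16 on the log2 scale (SE 0.55, adjusted p = 0.0294). The H4 gene HHF1 was at 468–647 RPKM at 1–5 nM, stood at 339, 54.2 and 112 RPKM at 10, 15 and 20 nM in experiment 1 and at 193 and 52.4 RPKM in experiment 2 (−2.14 ± 0.53, adjusted p = 0.0253). Fold changes of HHF2, HHO1 (linker histone H1), HTA1, HTB1, HHT1 and HHT2 ranged from −1.74 to −1.36. HTA2 and HTB2, HTA1 and HTB1, HHT1 and HHF1, and HHT2 and HHF2 are transcribed away from each other from shared intergenic regions of 646 to 817 bases, so the 8 genes represent 4 promoter regions. The H2A.Z gene HTZ1 fell from 61.4–83.7 to 24.4–44.1 RPKM (−1.21 ± 0.20, adjusted p = 0.00835). It was at 30.7 and 29.8 RPKM at 50 nM, where HTB2 had fallen to 15.9 RPKM in both experiments. From 10–20 to 50–100 nM, 6 of the 11 histone genes were called lower again. The calls over the step rested on single libraries, since HTZ1 alone of the 10 kept its call in all 9 fits that left out a library. The number kept was 2 without the 1 nM library of experiment 1 and 1 without that of experiment 2. It was 7 and 4 without the 5 nM libraries, 8 without the 15 nM library and 7 and 4 without the 20 nM libraries, in the same order, and the adjusted p in these fits reached 0.0826 for HTA2.

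Of 15 genes on a list of G1/S wave regulators, 5 fell, 10 were lower at any size of change (793 of 5979 over all genes) and none was higher, with a median of −0.78. The list also holds TOS2, which is not a transcription regulator. YHP1 (YDR451C), a homeobox repressor of M/G1 genes, had the largest fall of all genes. It was at 47.0 and 25.7 RPKM at 1 and 5 nM in experiment 1 and at 33.4 and 36.0 RPKM in experiment 2, and at 17.6, 2.77 and 3.77 RPKM at 10, 15 and 20 nM in experiment 1 and 10.8 and 2.31 RPKM in experiment 2 (−2.43 ± 0.51, adjusted p = 0.0158). Its paralogue YOX1 (−1.78 ± 0.48, adjusted p = 0.0358), NRM1, the co-repressor of MBF (−1.66 ± 0.35, adjusted p = 0.0160), TOS4 (−1.65 ± 0.44, adjusted p = 0.0351) and TOS2 (−1.16 ± 0.28, adjusted p = 0.0229) also fell. TOS4 and TOS2 overlapped between the dose groups because the 10 nM library of experiment 1 was as high as libraries at lower dose, at 50.2 RPKM for TOS4 against 44.0–64.5 RPKM. WHI5, the repressor of SBF (−0.78 ± 0.21, adjusted p = 0.0351), and HCM1, a forkhead factor of S phase (−0.78 ± 0.16, adjusted p = 0.0146), were lower by less than 2-fold. Of the SBF and MBF subunits, SWI6 (−0.35 ± 0.06, adjusted p = 0.00821) and MBP1 (−0.28 ± 0.07, adjusted p = 0.0225) were lower by less than 2-fold, and SWI4 did not pass the test (−0.40 ± 0.13, adjusted p = 0.062). No call among the 5 fallen genes of the list was kept without the 1 nM library of either experiment. The number kept was 2 without the 20 nM library of either or the 5 nM library of experiment 2. It was 3 without the 5 or the 15 nM library of experiment 1, and the adjusted p reached 0.103 for YOX1.

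The 8 G1 and S phase cyclins tested did not move in a single direction. PCL1 was at 55.3 and 51.8 RPKM at 1 and 5 nM in experiment 1 and at 57.0 and 60.5 RPKM in experiment 2, and then at 37.0, 6.29 and 12.6 RPKM at 10, 15 and 20 nM in experiment 1 and at 23.4 and 3.48 RPKM in experiment 2 (−2.13 ± 0.56, adjusted p = 0.0314). CLN1 fell from 41.2–50.8 to 7.69–34.8 RPKM (−1.51 ± 0.35, adjusted p = 0.0224) and CLB6 from 8.60–14.2 to 0.907–8.18 RPKM (−1.50 ± 0.43, adjusted p = 0.0442). CLB5, CLN2 and PCL9 were lower by less than 2-fold, with values from −0.88 to −0.56. PCL2, a partner of the kinase Pho85, rose instead, from 39.9–111 to 123–253 RPKM (1.68 ± 0.26, adjusted p = 0.00796). The calls of PCL1 and CLB6 were lost without any library other than a 10 nM one, with an adjusted p of up to 0.0888 and 0.122, and that of CLN1 without the 1 or the 20 nM library of either experiment or the 5 nM library of experiment 2 (up to 0.0672). CLN3, the cyclin upstream of Start, was at 16.3 and 27.6 RPKM on average and did not pass the test (0.67 ± 0.20, adjusted p = 0.0531).

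Genes used in S phase showed many small decreases. Of 45 DNA replication genes, RNR1, the large subunit of ribonucleotide reductase, was called, and 22 were lower at any size of change (793 of 5979 over all genes), with a median of −0.50. RNR1 was at 181–247 RPKM at 1–5 nM, then at 205, 50.5 and 68.1 RPKM at 10, 15 and 20 nM in experiment 1 and at 102 and 34.6 RPKM in experiment 2 (−1.49 ± 0.41, adjusted p = 0.0386), so that its 10 nM library of experiment 1 was still within the range of the lower doses. Of 11 cohesin and securin genes 3 fell and 8 were lower at any size of change, with a median of −0.75. MCD1, the cohesin kleisin, was at 59.8 and 60.2 RPKM at 1 and 5 nM in experiment 1 and 55.4 and 51.6 RPKM in experiment 2, and at 49.5, 8.18 and 12.5 RPKM at 10, 15 and 20 nM in experiment 1 and 21.5 and 3.38 RPKM in experiment 2 (−2.06 ± 0.57, adjusted p = 0.0376). PDS5, a cohesin regulator, fell by 1.24 on the log2 scale (SE 0.33, adjusted p = 0.0319), and securin, PDS1, by 1.06 (SE 0.21, adjusted p = 0.0144). The calls of RNR1, MCD1 and PDS5 were lost without any library other than a 10 nM one, with an adjusted p of up to 0.103, 0.103 and 0.0900, and PDS1 was below 2-fold without the 15 nM library or the 20 nM library of experiment 2. Of 14 MCM and origin licensing genes none was called, and 5, CDC6, MCM7, ORC1, ORC3 and MCM6, were lower by less than 2-fold.

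The letters of the cell-cycle factors were frequent before the fallen genes. CGCGAAA or CACGAAA, the SBF element, stood in 23 of 72 fallen protein-coding genes (31.9%) and 3 of 39 risen ones, compared with 7.87% of all promoters. ACGCGT, the MBF element, stood in 7 of the 72 (9.72%), none of the 39 and 3.23% of all. GTAAACA, the forkhead element, stood in 18 of the 72 (25.0%), 2 of the 39 and 6.82% of all. Any of the 3 was present in 41 of the 72 fallen genes (56.9%), in 5 of the 39 risen genes (12.8%) and in 16.5% of all. The SBF and MBF letters were both found in 2 of the fallen genes and shared no bases there. Stretches from 250 to 101 bases before the start codon are shown for the 3 genes with the largest falls that hold the SBF letters there, in capitals and in either orientation.
HHO1 (chrXVI:309705-309854, minus strand): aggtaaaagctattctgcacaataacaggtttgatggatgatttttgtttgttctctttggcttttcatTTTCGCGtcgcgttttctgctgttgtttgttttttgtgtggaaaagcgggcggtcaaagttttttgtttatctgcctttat
TOS4 (chrXII:522113-522262, minus strand): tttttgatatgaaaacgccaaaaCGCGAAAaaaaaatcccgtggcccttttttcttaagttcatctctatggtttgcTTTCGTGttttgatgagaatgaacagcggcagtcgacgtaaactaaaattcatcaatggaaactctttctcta
ACM1 (chrXVI:37919-38068, plus strand): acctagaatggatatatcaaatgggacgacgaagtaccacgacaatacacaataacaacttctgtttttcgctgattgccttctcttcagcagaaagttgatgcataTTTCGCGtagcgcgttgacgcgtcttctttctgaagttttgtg
TOS4 holds both SBF forms. The corresponding stretches with the forkhead letters in capitals are shown for the 3 largest falls that hold them, of which HOF1 is a mitotic gene.
HHF1 (chrII:255785-255934, minus strand): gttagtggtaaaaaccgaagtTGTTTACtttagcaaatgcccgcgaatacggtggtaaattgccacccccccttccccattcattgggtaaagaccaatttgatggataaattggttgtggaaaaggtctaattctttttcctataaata
HOF1 (chrXIII:335048-335197, plus strand): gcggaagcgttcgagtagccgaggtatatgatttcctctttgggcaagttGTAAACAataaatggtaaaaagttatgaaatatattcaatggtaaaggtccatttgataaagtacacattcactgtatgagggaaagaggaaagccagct
IRC8 (chrX:339537-339686, plus strand): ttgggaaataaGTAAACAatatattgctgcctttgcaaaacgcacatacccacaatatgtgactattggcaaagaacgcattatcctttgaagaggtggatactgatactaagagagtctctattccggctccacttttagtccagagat
The HHF1 stretch lies in the intergenic region shared with HHT1.

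Of 24 mitotic genes of the CLB2 cluster tested, 10 fell, 20 were lower at any size of change (793 of 5979 over all genes) and 1 was higher, with a median of −0.85. CLB1 (YGR108W), a B-type cyclin, was at 43.4 and 25.1 RPKM at 1 and 5 nM in experiment 1 and at 40.7 and 30.1 RPKM in experiment 2, and at 12.03, 4.95 and 7.22 RPKM at 10, 15 and 20 nM in experiment 1 and 10.9 and 5.59 RPKM in experiment 2 (−2.003 ± 0.268, adjusted p = 0.00712). HOF1, a cytokinesis protein, was at 33.5 and 13.9 RPKM at 1 and 5 nM in experiment 1 and 28.6 and 15.4 RPKM in experiment 2, and fell to 2.68–7.21 RPKM (−1.96 ± 0.31, adjusted p = 0.0081). In both genes the 5 nM library was below the 1 nM library of the same experiment. ALK1, a haspin-like kinase, fell by 1.86 on the log2 scale (SE 0.25, adjusted p = 0.00712), as did AIM20 (1.86, SE 0.25, adjusted p = 0.00712). The transcription factor SWI5 (−1.61 ± 0.22), the bud neck landmark genes BUD4 (−1.74 ± 0.27) and BUD3 (−1.05 ± 0.14), the polo kinase CDC5 (−1.28 ± 0.19), HST3 (−1.37 ± 0.23) and the septum chitin synthase CHS2 (−1.01 ± 0.22) completed the called genes. CLB2 itself was lower by less than 2-fold (−0.59 ± 0.09, adjusted p = 0.00814), and SPO12 was higher by less than 2-fold (0.50 ± 0.12, adjusted p = 0.0242). From 10–20 to 50–100 nM, none of the 24 was called. CLB1 (−0.83, adjusted p = 0.0139, limma), AIM20, BUD4, SWI5 and BUD3 were lower again by less than 2-fold at an adjusted p below 0.05. HOF1, ALK1, CDC5 and HST3 did not pass there, with an adjusted p of at least 0.0765. The calls of 8 of the 10 were kept in all 9 fits that left out a library, the exceptions being CHS2 without the 1 or the 20 nM library of either experiment and BUD3 without the 1 or the 20 nM library of experiment 2. Of 17 spindle and microtubule genes, STU2, CIN8 and SPC98 fell and 16 were lower at any size of change, with a median of −0.75, and the tubulins TUB1 (−0.94 ± 0.15, adjusted p = 0.0081) and TUB2 (−0.76 ± 0.13, adjusted p = 0.00838) were among those below 2-fold. STU2 kept its call without each library in turn, whereas CIN8 and SPC98 lost theirs without the 15 nM library or the 20 nM library of experiment 2, and CIN8 also without the 1 nM library of experiment 2.

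Among 26 septin and polarity genes, GIC1, SWE1, CDC5 and GIN4 fell, and 16 were lower at any size of change (793 of 5979 over all genes). Of these 4 calls, that of CDC5 was kept in all 9 fits that left out a library, and 1 was kept without the 1 nM library of either experiment or the 20 nM library of experiment 2. The related Cdc42 effectors went apart: GIC1 fell from 15.4–20.8 to 3.09–14.4 RPKM (−1.37 ± 0.35, adjusted p = 0.0303), whereas GIC2 was higher by less than 2-fold, at 56.1 and 92.2 RPKM on average (0.66 ± 0.11, adjusted p = 0.00821). SWE1, the morphogenesis checkpoint kinase, was at 31.3–43.4 RPKM at 1–5 nM and, at 10, 15 and 20 nM, at 34.6, 11.6 and 13.6 RPKM in experiment 1, with 14.9 and 7.47 RPKM at 10 and 20 nM in experiment 2 (−1.35 ± 0.30, adjusted p = 0.0189).

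**Figure D4:**
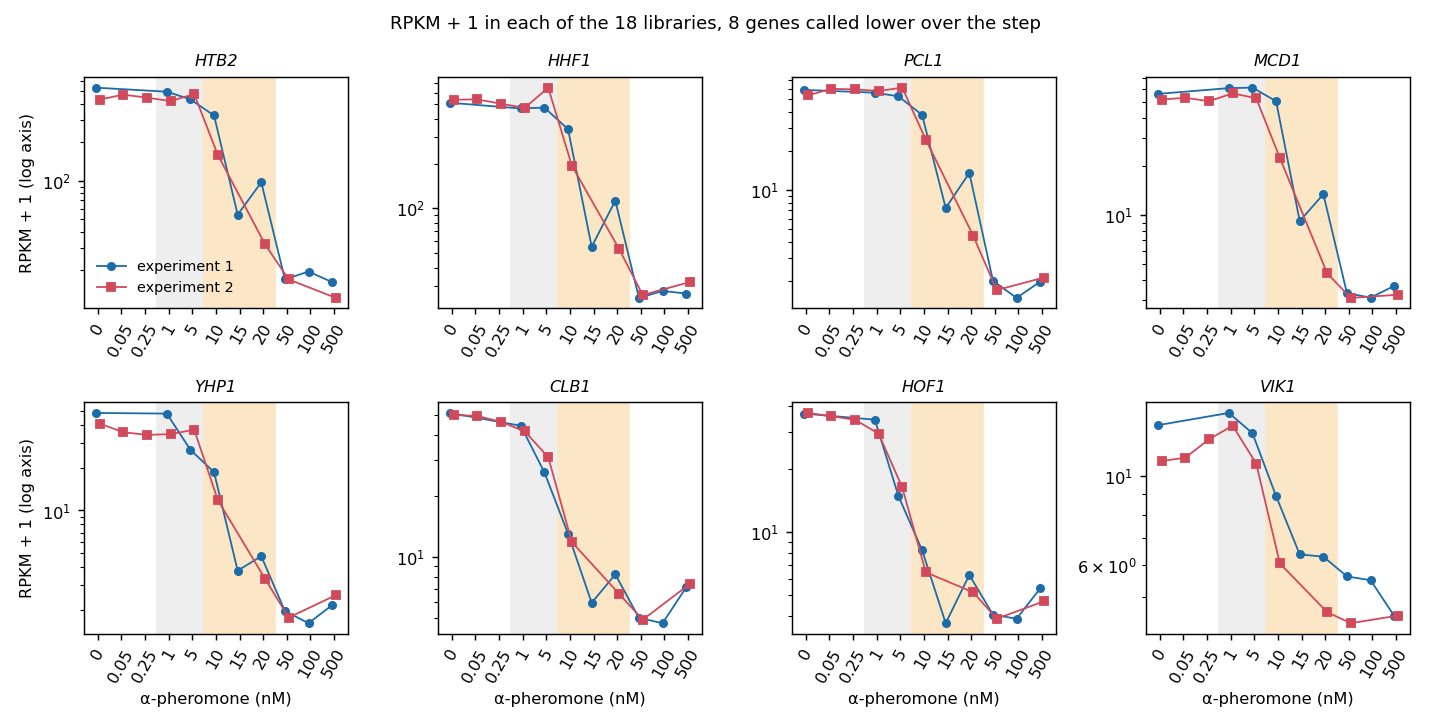
RPKM + 1 (log axis) in each of the 18 libraries against pheromone dose in nM (categories) for 8 fallen genes; blue circles are experiment 1, red squares experiment 2, and grey and orange bands mark 1–5 and 10–20 nM. The 15 nM library of experiment 1 lies below its 20 nM library for HTB2, HHF1, PCL1, MCD1, YHP1, CLB1 and HOF1, and CLB1 and HOF1 are already lower at 5 than at 1 nM.

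The course within 10–20 nM was described by the share of the change present at 10 nM. At 10 nM the risen genes had reached a median of 61.9% of their change at 20 nM in experiment 1 and 66.8% in experiment 2, both measured on the log2 scale from the mean of the 1 and 5 nM libraries. The fallen genes had reached 32.4% and 55.4%. Among the fallen, the called CLB2 cluster genes (n = 10) had reached 65.9% and 68.7% and the called histone genes (n = 10) 23.5% and 51.2%. The called genes of the G1/S regulator list (n = 5) had reached 21.9% and 46.4% and the called cohesin and securin genes (n = 3) 14.7% and 40.1%. With a single 10 nM and a single 20 nM library per experiment these shares carry no error, and their differences were not tested. At 10 nM the library of experiment 2 was lower than that of experiment 1 for 70 of the 75 fallen genes and higher for 20 of the 53 risen genes, and at 20 nM it was lower for 69 of the 75 and higher for 26 of the 53. The share over all genes was not counted. The median RPKM over genes averaging at least 1 RPKM was also lower in experiment 2. It was 31.6 against 34.6 at 10 nM and 31.3 against 34.1 at 20 nM. The part of a general offset in these counts was not tested.

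In experiment 1 the 20 nM library responded less than the 15 nM library. The 15 nM value was above the 20 nM value for 45 of the 53 risen genes and below it for 65 of the 75 fallen genes. The share over all genes was not counted. The median RPKM over genes averaging at least 1 RPKM was 32.9 at 15 nM and 34.1 at 20 nM. The median change from 1–5 nM was 2.23 at 15 nM and 1.97 at 20 nM for risen genes, and −1.85 and −1.58 for fallen genes. The 20 nM library was nevertheless past the 10 nM library for 51 of the 53 and 75 of the 75. In experiment 2, which had no 15 nM flask, the 20 nM medians were 2.55 and −1.88, and 20 nM was past 10 nM for 52 of the 53 and 75 of the 75. The mapped reads were 9850001 at 15 nM and 11750015 at 20 nM in experiment 1, and the part of depth in the difference was not tested. Without the 20 nM library of experiment 1, 49 genes rose and 49 fell, and without the 15 nM library 53 rose and 48 fell.

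The size of the step was compared between the experiments by an interaction term, for which 0 of 5979 genes passed at an adjusted p below 0.05 (0.00%; limma; 108 genes had an unadjusted p below 0.05). With experiment 2 alone, 36 genes rose and 22 fell. With experiment 1 alone no gene was called, the smallest adjusted p being 0.258, although 55 genes rose and 80 fell by at least 2-fold at an unadjusted p below 0.05. The experiments also differed at the lower edge of the step. At 5 nM the library of experiment 1 was above that of experiment 2 for 49 of the 53 risen genes. The share over all genes was not counted, and the median RPKM was also higher in experiment 1, at 35.3 against 32.4. Values were also taken from the mean of the 1 and 5 nM libraries of the same experiment, which makes them mirror images. The median of the risen genes was then −0.49 at 1 nM and 0.49 at 5 nM in experiment 1, and −0.14 and 0.14 in experiment 2.

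**Figure D5:**
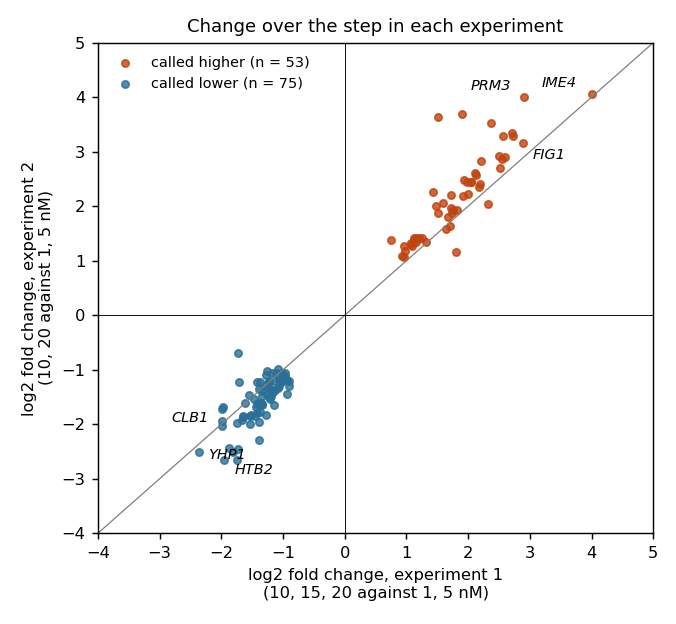
Log2 fold change over the step on log2(RPKM + 1) in experiment 1 (x axis, 10, 15 and 20 against 1 and 5 nM) and experiment 2 (y axis, 10 and 20 against 1 and 5 nM) for the 53 genes called higher (orange) and the 75 called lower (blue); the grey line marks equal change. All points lie in the quadrants of shared direction; the genes were chosen on both experiments together, so their direction is not independent support.

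Other groups showed small or no changes. None of 138 cytosolic ribosomal protein genes passed the test at any size of change, with a median of 0.00, and of 49 ribosome biogenesis genes 2 were lower by less than 2-fold. None of 33 cell wall integrity and chitin genes was called. Of these, 7 were higher by less than 2-fold, among them CHS1, a chitin synthase (0.96 ± 0.19, adjusted p = 0.0137), the wall sensor MID2 (0.94 ± 0.20, adjusted p = 0.016) and SCW10 (0.93 ± 0.16, adjusted p = 0.00872). A further 4 were lower by less than 2-fold, among them the mannoprotein gene CWP1 (−0.97 ± 0.20, adjusted p = 0.0146), GAS1 (−0.72 ± 0.15, adjusted p = 0.016) and the glucan synthase FKS1 (−0.63 ± 0.15, adjusted p = 0.0235). None of 24 ergosterol synthesis genes was called, and ERG24 was higher by less than 2-fold (0.74 ± 0.13, adjusted p = 0.00956) while 6 others were lower. None of 15 calcium influx and calcineurin genes, 30 stress genes, 17 daughter-cell separation genes and 8 hexose transporter genes tested was called. In the last-named groups 1, 3, 5 and 0 genes were higher, and 2, 0, 3 and 2 lower, by less than 2-fold at an adjusted p below 0.05. Over all 5979 genes tested, 243 were higher and 793 lower at that adjusted p and any size of change. The groups of this paragraph were not tested against those shares.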

How the data were processed

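The libraries were made by the authors from total RNA of yeast depleted of ribosomal RNA, reverse-transcribed with random hexamers and sequenced as directional reads of 50 bases. The authors deposited RPKM values, in 1 table per experiment. Bowtie 0.12.2 and the sacCer3 genome stand in the submitters' processing notes, whereas the study's methods name Bowtie 2 without a version, so the aligner is uncertain. Of 7126 gene IDs, 6048 matched the R64 annotation, the assembly of sacCer3, and 151 IDs listed repeatedly with identical values were kept once. Library totals were recovered because RPKM values of low genes were whole multiples of 1 read (99.5–99.9% of values within 0.05 read, over values of up to 100 reads).

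Values were analysed as log2(RPKM + 1), a scale that understates changes of low genes, with limma 3.58.1 in R 4.3.3 (empirical Bayes with trend, two-sided, Benjamini-Hochberg over all genes tested). The test covered genes whose mean over the fitted libraries reached 1 RPKM, and a call required an adjusted p below 0.05 and a 2-fold change. The step was fitted on its 9 libraries with experiment as a block. The steps before and after it, and the difference of step and step after, were contrasts in a fit of all 18 libraries in 5 dose bins. The experiment paired the libraries by design (a culture, mock and table of its own), and deviations of the experiments correlated between doses by 0.31–0.43 over 6 pairs of doses. The fit was tested on simulated data.

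Genes named in full were the 12 largest rises and falls among called genes averaging 5 RPKM or more and moving in one direction in both experiments, up to 4 called members of each gene list, and pathway genes that passed the test; further members are named where a count needed them, after their values were seen. The dose groups, gene lists and promoter motifs were chosen with earlier results of these data known. Promoter windows and coordinates were read from R64, in which 5539 of 5543 windows had ATG at the annotated start. A further promoter motif that was searched is not reported here. Alternatives changed the pseudocount (0.1 or 5), the filter, the scaling, the block, the fitted libraries and the test (limma-voom on recovered reads). Floors cover counting error only, whereas the SE values come from the spread among the fitted libraries.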

Additional observations from a re-analysis of the deposited data

Results flagged for a closer look

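In the groups of 4 and 5 libraries, a library was singled out where its gap to the nearest other library, divided by the range of its group, exceeded the critical value of Dixon's test at 95%. Each group pools different doses, so the chance rate of the test for replicates, about 1 in 20 or 6.3 groups, does not apply here. A library was singled out in 14 of 126 groups of 63 named genes. In 10 of them the 5 nM library of experiment 1 stood above the other libraries at 1–5 nM: PRM2 (gap over range 0.857), PCL2 (0.872), FUS2 (0.869), PRM1 (0.879), CIK1 (0.881), PRM8 (0.877), AFR1 (0.929), KAR4 (0.833), SST2 (0.830) and TOS4 (0.864). For AFR1 the values were 65.8 RPKM in that library and 34.7–36.9 RPKM in the other libraries. These genes share libraries, so the 10 are not independent.

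The 5 nM library of experiment 2 stood highest for the histone H4 genes HHF1 (0.962; 647 against 468–475 RPKM) and HHF2 (0.943; 806 against 571–584 RPKM). The 1 nM library of experiment 1 stood highest for NRM1 (0.875; 30.5 against 21.6–22.7 RPKM). At 10–20 nM, the 10 nM library of experiment 1 stood highest for SWE1 (0.727; 34.6 against 7.47–14.9 RPKM).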

How the results depend on the processing

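With a pseudocount of 5, 46 genes fell over the step in place of 75, 10 in place of 22 rose at 1–5 nM, 1 in place of 2 fell there, and 38 in place of 60 fell after the step. With a pseudocount of 0.1, 1 gene fell at 1–5 nM and 92 fell after the step, and with a minimum mean of 5 RPKM the count of falls at 1–5 nM was 0. Centring each library on its median gave 73 in place of 47 genes with a signed difference of step and step after above 0. That count also takes in genes that fell by more after the step. The experiments were paired by culture; with no replicate block 54 genes rose and 66 fell over the step, and the difference of step and step after passed for 22 genes above 0 and 15 below 0 in place of 47 and 41, with AGA1 (adjusted p = 0.379), FUS3 (0.113) and HTZ1 (0.0535) no longer passing. Experiment 1 alone (5 libraries) gave 0 and 0 calls and experiment 2 alone 36 and 22. Limma-voom on recovered reads gave 39 rises and 91 falls, of which 37 and 72 were shared with the main calls, and quantile normalization 55 and 59. Leaving out single libraries gave 45 to 60 rises and 27 to 117 falls over the step, 14 to 25 and 0 to 3 at 1–5 nM, 52 to 77 and 43 to 91 after the step, 9 to 73 above 0 and 7 to 134 below 0 for the difference, and 0 for the difference between experiments. Of 63 named genes, none reversed under any alternative; over the 9 fits without a library calls of named genes were lost 107 times, and FAR1 passed 2-fold once, without the 5 nM library of experiment 1 (1.02). The smallest totals limit genes near the floor of 0.483 RPKM per 1000 bases.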

Other observations

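Of the 75 fallen genes, 41 belonged to a list. Among the others, HO, the mating-type switching endonuclease, was at 96.9–110 RPKM at 1–5 nM. It was at 84.0, 47.0 and 46.3 RPKM at 10, 15 and 20 nM in experiment 1 and at 44.6 and 40.2 RPKM at 10 and 20 nM in experiment 2 (−1.04 ± 0.17 SE on the log2 scale, adjusted p = 0.0081, limma), and at 45.0 and 41.8 RPKM at 50 nM. Its call was kept in 6 of the 9 fits that left out a library, and not without the 15 nM library or the 20 nM library of either experiment. FKH1, a forkhead factor of mitotic genes, fell from 51.5–71.5 to 17.8–34.9 RPKM (−1.27 ± 0.17, adjusted p = 0.00712). A further 5 fallen genes act at the spindle pole body or kinetochore and belonged to no list, so the number of such genes tested was not counted: SPC97 (−1.55 ± 0.32, adjusted p = 0.0154), BBP1 (−1.34 ± 0.27, adjusted p = 0.0136), SPC29 (−1.19 ± 0.26, adjusted p = 0.0180), the kinetochore gene SPC24 (−1.10 ± 0.24, adjusted p = 0.0164) and NUD1 (−1.05 ± 0.19, adjusted p = 0.0100). BBP1 kept its call without each library in turn, whereas SPC97 lost it without the 1 nM library of experiment 2, SPC29 without the 1 nM library of either experiment or the 20 nM library of experiment 2, SPC24 without these or the 15 nM library, and NUD1 without the 15 nM library, the 20 nM library of either experiment or the 1 nM library of experiment 2. All 7 genes were chosen after their values were seen.

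Among rises without a mating role in the lists, GRX3, a glutaredoxin of iron regulation, went from 95.6–141 to 178–410 RPKM (1.32 ± 0.26, adjusted p = 0.0134) and stood at 1164 and 1103 RPKM at 50 nM. BOP3 went from 23.8–36.4 to 57.8–155 RPKM (1.74 ± 0.30, adjusted p = 0.00891), and PMU1 from 69.4–176 to 222–480 RPKM (1.84 ± 0.31, adjusted p = 0.00824). These genes were also chosen after their values were seen. STE3, the receptor of MATα cells, did not exceed 4.20 RPKM in any of the 18 libraries.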
